A study of Mus musculus with 16 samples.

Results

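The genes described here are 9 markers of mural cells, the cells that wrap blood vessels: Pdgfrb, Rgs5, Kcnj8, Abcc9, Vtn and Anpep, used for pericytes, and Acta2, Tagln and Myh11, used for vascular smooth muscle. They were chosen by symbol, as known mural markers, with earlier results of these data known. They are 9 of the 19449 genes in the deposited count table. All 9 passed the filter on low counts that left 16269 genes for testing. RNA from the hippocampus of mice aged 3 months was sequenced in 16 libraries, 4 in each of 4 groups. The groups were TSPOKO mice (deletion of Tspo) injected with LPS, TSPOKO mice injected with PBS, WT mice injected with LPS and WT mice injected with PBS. LPS is lipopolysaccharide, a component of bacterial cell walls that sets off inflammation, and PBS is the saline vehicle. The dose of LPS, the interval to tissue collection and how the deletion was made are not given in the sources used here. Whether the 4 replicates of each group came from different animals is not stated, so n counts libraries and every p-value measures the spread between these libraries.

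Pericytes sit on capillaries inside the basement membrane that they share with endothelial cells, and they are recruited and kept there by endothelial PDGF-B acting on the receptor encoded by Pdgfrb. Smooth muscle cells ring arterioles and carry the contractile proteins that narrow them. In the brain both cell types take part in the control of blood flow and in upkeep of the blood-brain barrier, and in bulk tissue they contribute a small part of the RNA. In such RNA, fewer cells of a type and less RNA per cell cannot be told apart.

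Library totals ran from 30198619 to 50009041 counts. Tspo, the deleted gene, stood at 0.209 to 0.487 CPM (counts scaled by library size) in KO LPS libraries, against 2.63 to 11.9 CPM in WT LPS libraries. In the PBS groups it stood at 0.152, 0.28 and 0.47 CPM in KO replicates 2 to 4, against 2.06 to 5.17 CPM in WT libraries, but the library labelled KO PBS replicate 1 held 2.33 CPM, which goes against its label. Lcn2, a marker of the inflammatory response, stood at 209 to 238 CPM in WT LPS replicates 2, 3 and 4, at 0.641 CPM in WT LPS replicate 1 and at most 0.302 CPM in the KO libraries of either treatment and in WT PBS libraries. WT LPS replicate 1 and WT PBS replicate 1 also stood apart in 12 choroid plexus genes, whose summed level was 17.7 and 16.4 CPM in these libraries and at least 588 CPM in each of the other 14. The hippocampal granule cell marker Prox1 was present in every group, from 54.1 to 120.5 CPM. The library titles carry codes of unstated meaning. WT LPS replicates 2 to 4 share a code and WT PBS replicates 1 to 3 another. Within WT, LPS and PBS thus share a code only in WT LPS replicate 1 and WT PBS replicate 4. KO PBS replicate 4 carries the code of WT LPS replicates 2 to 4, from which it differs in both genotype and treatment. No code is shared between KO and WT within a treatment, or between LPS and PBS in KO. Among the libraries of each of those comparisons, code and group cannot be told apart.

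The stretches before the start sites of 4 genes are shown first: Rgs5 and Abcc9, which changed, Kcnj8, which did not pass but encodes the channel partner of Abcc9, and Acta2, for the contractile genes. They come from the RefSeq promoter table (mouse GRCm38.p6), which had entries for 6 of the 8 genes looked up: Rgs5, Kcnj8, Abcc9, Vtn, Acta2 and Anpep. Each is written 5′ to 3′ on the strand of the gene, and starts are those of RefSeq. The RefSeq starts of Abcc9 and Acta2 lie inside the longer gene spans of GENCODE M21 given below, and the 41 bases of Abcc9 that GENCODE M21 counts as exon were left off. Capitals mark matches to the CArG box, the element bound by serum response factor, with 1 G or C allowed among the A and T bases of its core. The positions are chr1:169655251-169655500 (plus strand) for Rgs5, chr6:142702316-142702524 (minus strand) for Abcc9 and chr6:142571615-142571864 (minus strand) for Kcnj8. For Acta2 the 30 bases around each match are shown, at chr19:34255438-34255467 and chr19:34255388-34255417 (minus strand).
Acta2 element 1: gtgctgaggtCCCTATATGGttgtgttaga
Acta2 element 2: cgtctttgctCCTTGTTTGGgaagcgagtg
Rgs5: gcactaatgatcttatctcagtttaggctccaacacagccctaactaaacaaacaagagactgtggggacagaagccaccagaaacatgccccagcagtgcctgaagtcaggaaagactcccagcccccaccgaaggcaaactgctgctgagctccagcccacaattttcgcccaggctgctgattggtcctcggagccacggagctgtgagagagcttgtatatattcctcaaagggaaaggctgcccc
Abcc9: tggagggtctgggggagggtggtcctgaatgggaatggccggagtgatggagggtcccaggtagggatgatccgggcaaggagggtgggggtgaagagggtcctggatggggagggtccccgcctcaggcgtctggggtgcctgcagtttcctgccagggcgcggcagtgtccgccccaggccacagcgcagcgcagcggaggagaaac
Kcnj8: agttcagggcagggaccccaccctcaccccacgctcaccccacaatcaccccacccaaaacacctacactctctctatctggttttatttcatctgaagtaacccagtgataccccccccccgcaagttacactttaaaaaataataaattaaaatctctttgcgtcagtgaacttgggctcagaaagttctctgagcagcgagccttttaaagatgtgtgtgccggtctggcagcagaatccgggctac

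Over the 250 bases before the RefSeq start, searched on both strands, Acta2 held 2 CArG-like matches, 84 to 75 and 34 to 25 bases before that start and so within the GENCODE M21 span of the gene, and the other 5 genes held none. An exact CArG box was found in none of the 6 genes. Of all 32851 windows of this length in the table, 1.47% held an exact box and 7.24% the form with 1 other base. The E-box CANNTG was found once each in Kcnj8 and Abcc9, at 2 places in Vtn, at 3 each in Acta2 and Anpep and at none in Rgs5, and 66.2% of all windows held it. That of Abcc9 lies 27 to 22 bases before the RefSeq start, in the bases left off above. These matches describe the letters only.

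Pdgfrb, which encodes the receptor for PDGF-B and is used as a pericyte marker, lies on chromosome 18 (61045150 to 61085061, plus strand of GRCm38, GENCODE M21). It stood at 23.3, 25.3, 18.7 and 23.7 CPM in KO LPS replicates 1 to 4 and at 22, 23.9, 27.0 and 30.8 CPM in KO PBS replicates 1 to 4. The WT LPS replicates 1 to 4 held 25.7, 29.6, 24.4 and 28.9 CPM, and WT PBS replicates 1 to 4 held 26.3, 22.1, 23.9 and 30.1 CPM. The 4 groups overlapped throughout, and the highest library was only 1.65 times the lowest. No comparison passed. In WT the log2 fold change of LPS against PBS was 0.08 ± 0.12 (SE), with a 95% interval of -0.18 to 0.34, and under LPS that of KO against WT was -0.26 ± 0.12 (adjusted p = 0.184, edgeR quasi-likelihood test with Benjamini-Hochberg adjustment over all genes tested, as for every adjusted p below).

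Rgs5 encodes a regulator that speeds the shut-off of G protein signalling and is one of the most abundant pericyte transcripts (chromosome 1, 169655501 to 169695813, plus strand). It fell after LPS in WT and did not pass in KO. It stood at 93.4, 94.7, 86.7 and 85.2 CPM in KO LPS replicates 1 to 4 and at 83.0, 79.5, 84.5 and 96.5 CPM in KO PBS replicates 1 to 4. In WT, LPS replicates 1 to 4 held 75.7, 58.9, 52.4 and 66.9 CPM, against 94.0, 102.9, 111.6 and 93.5 CPM in WT PBS replicates 1 to 4. All 4 WT LPS libraries were thus the lowest of the 16, and replicate 1, which lacked the Lcn2 response, was the highest of them yet still below every WT PBS library. The KO groups overlapped each other and stood above every WT LPS library. All KO LPS libraries lacked the Lcn2 response (at most 0.119 CPM), and whether LPS acted in them was not tested.

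In WT, Rgs5 averaged 63.5 ± 10.1 CPM after LPS and 100.5 ± 8.59 CPM after PBS (SD, n = 4 each), a log2 fold change of -0.66 ± 0.10 (SE; 95% interval -0.87 to -0.45; adjusted p = 0.00281). Under LPS it was higher in KO, at 90.0 ± 4.75 CPM against 63.5 ± 10.1 CPM in WT (log2 fold change 0.50 ± 0.10, adjusted p = 0.0066). These comparisons share the WT LPS libraries. Its log2 fold change of LPS against PBS in KO was 0.07 ± 0.10 (95% interval -0.14 to 0.28, adjusted p = 0.867), and under PBS that of KO against WT was -0.23 ± 0.10 (adjusted p = 0.918). The test of the difference itself, the interaction of genotype with LPS, gave 0.73 ± 0.14 for KO minus WT (adjusted p = 0.0432). Where LPS and PBS share a title code in WT, Rgs5 stood at 75.7 CPM in WT LPS replicate 1 and 93.5 CPM in WT PBS replicate 4. With that code as a term the estimate rests on this 1 pair of libraries alone, of which the LPS library lacked the Lcn2 response, and was -0.30 (adjusted p = 0.414). In a fit of only the 8 WT libraries the fall was not called (adjusted p = 0.0815). The interaction stayed between 0.65 and 0.83 when each library was left out in turn, and passed in 3 of those 16 fits, without WT PBS replicate 1, WT PBS replicate 4 or WT LPS replicate 1. Its adjusted p otherwise reached 0.118, and was 0.08 without the library labelled KO PBS replicate 1. It did not pass with the replicate number as a block (0.0785) or with WT PBS replicates 2 and 3 summed (0.113), and passed in DESeq2 and limma. Without replicate 1 of both WT groups, a choice made after the data were seen, the fall in WT was -0.78 and the interaction 0.85, both passing.

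**Figure D1:**
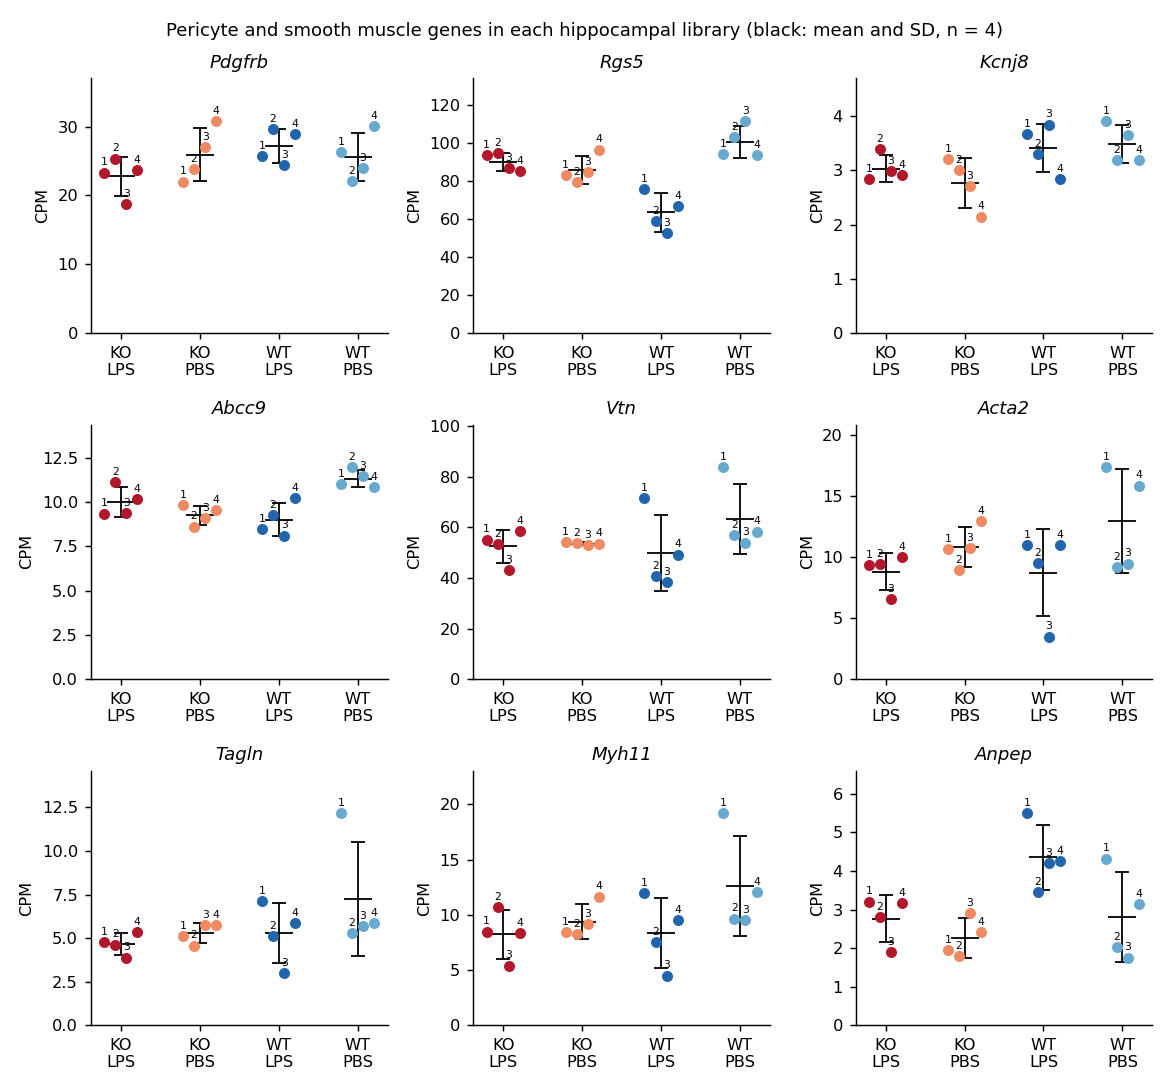
CPM of each of the 9 mural cell genes (y axis, starting at 0) in the 16 libraries by group (x axis), with replicate numbers beside the points and the mean and SD of 4 libraries in black. The WT LPS libraries lie below the other 3 groups in Rgs5 (52.4 to 75.7 CPM), WT PBS replicate 1 lies highest in Vtn, Acta2, Tagln and Myh11, and WT LPS replicate 3 lies lowest in these same genes.

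Kcnj8 and Abcc9 encode the pore and the sulphonylurea receptor subunit of the ATP-sensitive potassium channel of mural cells, whose opening relaxes them, and they are neighbours on the minus strand of chromosome 6 (Kcnj8 at 142564837 to 142571614, Abcc9 at 142587862 to 142702315). Abcc9 fell after LPS in WT, while Kcnj8 passed in no comparison. Abcc9 stood at 9.34, 11.1, 9.38 and 10.2 CPM in KO LPS replicates 1 to 4 and at 9.82, 8.62, 9.07 and 9.53 CPM in KO PBS replicates 1 to 4. Levels in WT LPS replicates 1 to 4 were 8.46, 9.24, 8.11 and 10.2 CPM, against 11.0, 12, 11.4 and 10.9 CPM in WT PBS replicates 1 to 4. The WT PBS libraries lay above all WT LPS and all KO PBS libraries, whereas the KO LPS and KO PBS libraries overlapped. WT LPS replicate 1, which lacked the Lcn2 response, held 8.46 CPM, below WT LPS replicates 2 and 4 (9.24 and 10.2 CPM). The level of Abcc9 thus did not follow that of Lcn2 among the WT LPS libraries.

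The log2 fold change of Abcc9 in WT was -0.33 ± 0.09 (SE; 9.01 ± 0.935 CPM after LPS and 11.3 ± 0.497 CPM after PBS, SD, n = 4 each; adjusted p = 0.0282). This call was lost without WT PBS replicate 2 (adjusted p = 0.0966), WT PBS replicate 3 (0.0812), WT LPS replicate 2 (0.0573) or WT LPS replicate 3 (0.105). It was also lost in the fit of the 8 WT libraries (adjusted p = 0.129). The 1 pair of WT LPS and WT PBS libraries that shares a title code differed by -0.36. Under PBS, Abcc9 averaged 9.26 ± 0.53 CPM in KO and 11.3 ± 0.497 CPM in WT, with groups that did not overlap. That difference of -0.29 ± 0.09 did not pass over all genes (edgeR unadjusted p = 0.00417, adjusted p = 0.918). The interaction was 0.44 ± 0.12 and did not pass (adjusted p = 0.0712). The antisense gene 5330439B14Rik overlaps Abcc9 and holds 1.57% of its 31-base words, and no source says whether strand was used in counting.

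Kcnj8 was scarce, with 64 to 165 counts per library. It stood at 2.85, 3.39, 2.99 and 2.92 CPM in KO LPS replicates 1 to 4 and at 3.2, 3.0, 2.71 and 2.15 CPM in KO PBS replicates 1 to 4. In WT, LPS replicates 1 to 4 held 3.67, 3.3, 3.85 and 2.84 CPM, against 3.92, 3.2, 3.65 and 3.2 CPM in WT PBS replicates 1 to 4. The groups overlapped in every comparison. In WT its log2 fold change of LPS against PBS was -0.03 ± 0.14, with a 95% interval of -0.34 to 0.27, and under PBS that of KO against WT was -0.33 ± 0.14 (adjusted p = 0.918). The subunit genes of the related neuronal channel, Kcnj11 (0.10 ± 0.12) and Abcc8 (0.14 ± 0.14), did not pass in WT. Of the 4 genes of these channels 1 thus fell and 3 did not pass, where 3.85% of all genes tested fell.

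Vtn encodes vitronectin, an adhesive protein that brain pericytes secrete in large amounts and that binds integrins and plasminogen activator inhibitor (chromosome 11, 78499091 to 78502324, plus strand). It stood at 55.1, 53.3, 43.2 and 58.4 CPM in KO LPS replicates 1 to 4 and at 54.1, 53.8, 52.9 and 53.6 CPM in KO PBS replicates 1 to 4. WT LPS replicates 1 to 4 held 71.4, 40.7, 38.4 and 49.3 CPM, against 83.8, 56.8, 54.0 and 58.3 CPM in WT PBS replicates 1 to 4. The KO PBS libraries were nearly equal, with an SD of 0.522 CPM. In WT, replicate 1 was the highest library of both treatments, and WT LPS replicates 2 to 4 lay below every WT PBS library.

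The log2 fold change of Vtn in WT was -0.34 ± 0.18 and did not pass (adjusted p = 0.25). Without WT LPS replicate 1 it fell by 0.57 on the log2 scale (-0.57, adjusted p = 0.0113), the 1 call in 16 fits that left out a library. Without replicate 1 of both WT groups, a choice made after the data were seen, it fell by 0.39 (-0.39, adjusted p = 0.0178). Without both, Vtn was also higher in KO than in WT under LPS (0.29, adjusted p = 0.0418), against 0.07 ± 0.18 with all libraries (adjusted p = 0.821). With single libraries left out in turn, that comparison passed in 0 of 16 fits. The 2 libraries left out are those with almost no choroid plexus RNA, and the part of tissue composition in these values was not tested.

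Anpep encodes aminopeptidase N, or CD13, a surface peptidase of pericytes that fibroblasts and myeloid cells also carry (chromosome 7, 79821803 to 79861059, minus strand). It was the least abundant of the 9 genes, with 53 to 180 counts per library. It stood at 3.21, 2.8, 1.89 and 3.16 CPM in KO LPS replicates 1 to 4 and at 1.95, 1.79, 2.91 and 2.42 CPM in KO PBS replicates 1 to 4. Levels in WT LPS replicates 1 to 4 were 5.5, 3.46, 4.2 and 4.26 CPM, against 4.32, 2.02, 1.76 and 3.14 CPM in WT PBS replicates 1 to 4. The WT LPS libraries lay above all KO LPS libraries, while within WT replicate 1 was the highest library of both treatments and the groups overlapped through it.

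The log2 fold change of Anpep for LPS against PBS in WT was 0.63 ± 0.27, with a 95% interval of 0.06 to 1.19, and did not pass (adjusted p = 0.161). Without WT PBS replicate 1 it was 0.92 and passed (adjusted p = 0.039). Under LPS the difference of KO from WT was -0.65 ± 0.27 and did not pass (adjusted p = 0.123). Of 14 leukocyte genes listed, 13 were measured and only 6 passed the filter on low counts. Of these 6, 5 rose after LPS in WT, where 4.72% of all genes tested rose. The summed level of the list was 3.18 to 23.1 CPM in WT LPS libraries and 2.03 to 3.2 CPM in WT PBS libraries. S100a8 and S100a9 averaged 2.71 and 3.87 CPM in WT LPS libraries, against 0.0635 and 0.184 CPM in WT PBS libraries. The filter may have kept such genes through the WT LPS libraries alone, so 5 of 6 is not a share of leukocyte genes. Of 16 fibroblast genes 2 rose, Cyp1b1 (1.63 ± 0.26) and Aldh1a2 (1.35 ± 0.36), against the same 4.72% of all genes. The mean log2 CPM of all 16, relative to the WT PBS mean, was highest in WT LPS replicate 1 and WT PBS replicate 1 (0.65 and 0.74). The part of these cells in the Anpep values was not tested.

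The contractile genes are Acta2, smooth muscle actin (chromosome 19, 34241090 to 34255590, minus strand), Tagln, the actin-binding protein transgelin (chromosome 9, 45929619 to 45936058, minus strand), and Myh11, the heavy chain of smooth muscle myosin (chromosome 16, 14194535 to 14291372, minus strand). None of them passed in any comparison. Acta2 stood at 9.32, 9.41, 6.58 and 9.99 CPM in KO LPS replicates 1 to 4 and at 10.7, 8.92, 10.8 and 13.0 CPM in KO PBS replicates 1 to 4. In WT, LPS replicates 1 to 4 held 11.0, 9.48, 3.5 and 11.0 CPM, against 17.4, 9.17, 9.46 and 15.9 CPM in WT PBS replicates 1 to 4. The groups overlapped in every comparison, and a single library, WT LPS replicate 3, held the lowest level of the 16 while WT PBS replicate 1 held the highest, 4.97 times as much.

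Myh11 had the same extremes. It stood at 8.49, 10.7, 5.4 and 8.32 CPM in KO LPS replicates 1 to 4 and at 8.47, 8.25, 9.15 and 11.6 CPM in KO PBS replicates 1 to 4. WT LPS replicates 1 to 4 held 12, 7.56, 4.49 and 9.5 CPM, against 19.2, 9.65, 9.53 and 12.1 CPM in WT PBS replicates 1 to 4. The groups again overlapped, and WT LPS replicates 2, 3 and 4 lay below the WT PBS range while replicate 1 lay within it.

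Tagln stood at 4.77, 4.63, 3.89 and 5.37 CPM in KO LPS replicates 1 to 4 and at 5.1, 4.58, 5.77 and 5.77 CPM in KO PBS replicates 1 to 4. WT LPS replicates 1 to 4 held 7.15, 5.14, 3.0 and 5.88 CPM, against 12.2, 5.31, 5.71 and 5.86 CPM in WT PBS replicates 1 to 4. WT PBS replicate 1 alone set the upper end, the other 3 WT PBS libraries lying between 5.31 and 5.86 CPM. The antisense gene Gm48529 holds 58.2% of the 31-base words of Tagln and is not in the table, so the level of Tagln is uncertain. The overlapping gene Pcsk7, with 3.93% of those words, stood at 27.2 to 31.4 CPM in WT LPS libraries and 22.1 to 24.0 CPM in WT PBS libraries.

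In WT the log2 fold changes of LPS against PBS were -0.57 ± 0.30 for Acta2, -0.59 ± 0.29 for Myh11 and -0.46 ± 0.27 for Tagln (adjusted p = 0.258, 0.22 and 0.32). Their 95% intervals reached -1.20, -1.20 and -1.03 at the lower end and 0.06, 0.02 and 0.11 at the upper end. Leaving out libraries in turn moved the estimate of Tagln between -0.63 and -0.08 and that of Acta2 between -0.70 and -0.30, with no call. In KO the same estimates were -0.29 ± 0.30, -0.19 ± 0.29 and -0.19 ± 0.27, and the 3 interactions were between 0.27 and 0.40 with SE of 0.38 to 0.42. All 3 intervals in WT include a change of the size of that in Rgs5.

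**Figure D2:**
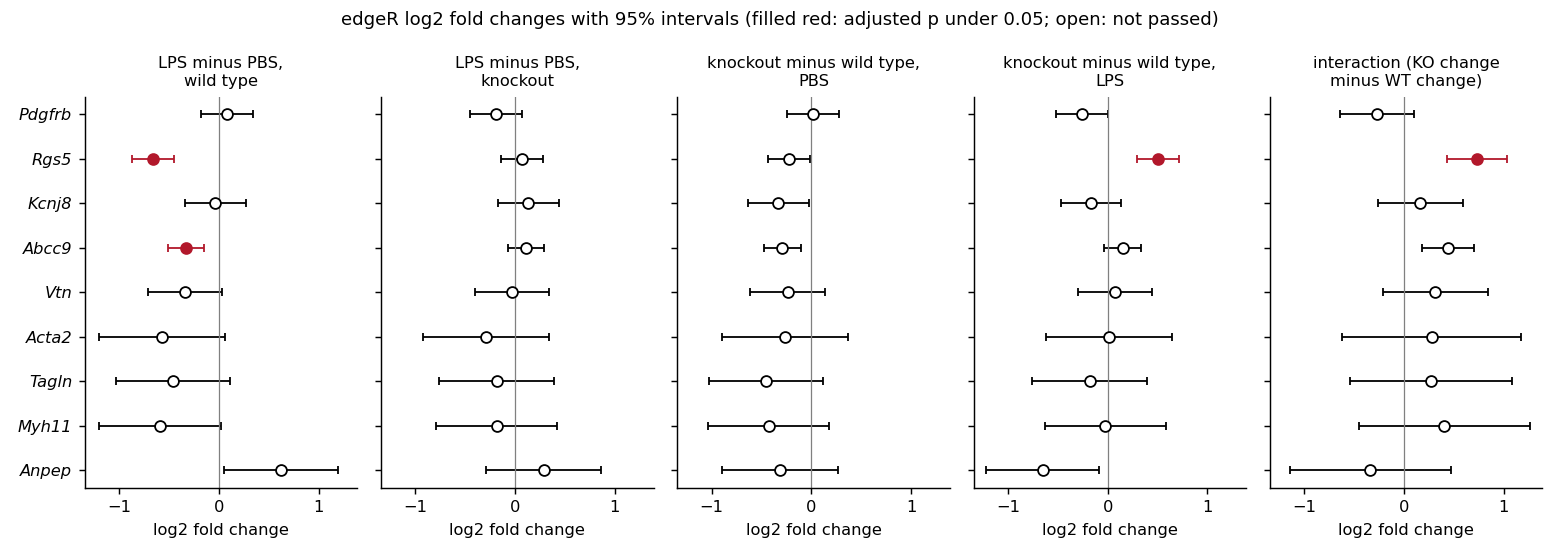
Log2 fold change (x axis) with its 95% interval for the 9 genes (y axis) in each of the 5 comparisons, from edgeR, filled red where the adjusted p was under 0.05 and open elsewhere. Rgs5 is filled in 3 panels and Abcc9 in 1, and the intervals of Acta2, Tagln and Myh11 all cross 0.

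In WT, 2 of 9 fell after LPS (Rgs5 and Abcc9), 0 rose and 7 did not pass, against 8.57% of all genes tested called, 4.72% higher and 3.85% lower. The estimates were negative in 7 of 9, and the median log2 fold change was -0.34 over the 9 genes and 0.00 over all genes. The libraries of LPS and PBS did not overlap in 2 of the 9 (Rgs5 and Abcc9), against 8.62% of all genes. In KO, 0 of 9 passed, and so did 0 of 16269 genes (0%, with 1120 at an unadjusted p under 0.05 in edgeR and 3 called by DESeq2). The groups overlapped in all 9, against 6.55% of all genes without overlap. The median over the 9 genes was -0.03 in KO, and -0.01 over all genes.

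Under PBS, 0 of 9 differed between KO and WT, where 0.0369% of all genes were called, 0.0307% higher and 0.00615% lower. The estimates were negative in 8 of 9, with a median of -0.29 over the 9 genes and 0.01 over all genes, and the libraries of the 2 genotypes did not overlap in Abcc9, against 3.28% of all genes. All 20 endothelial genes listed also had negative estimates, with a median of -0.22, and 0 of them passed. Their summed level was 426 to 491 CPM in KO PBS libraries and 500.1 to 629 CPM in WT PBS libraries, and its part in the mural estimates was not tested. Under LPS, 1 of 9 was higher in KO (Rgs5) and 0 lower, against 11.9% of all genes called (4.61% higher and 7.28% lower), and the groups did not overlap in Rgs5 and Anpep, against 14.3% of all genes. The interaction called 1 of 9 (Rgs5), against 1.15% of all genes (0.553% higher and 0.596% lower).

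Levels of different genes were compared only per length, as CPM per kilobase of exon. In WT PBS libraries the order was Vtn (31.1 ± 6.82), Rgs5 (22.1 ± 1.89), Acta2 (5.91 ± 1.94), Pdgfrb (4.67 ± 0.631), Tagln (3.65 ± 1.65), Myh11 (1.66 ± 0.597), Kcnj8 (1.37 ± 0.14), Abcc9 (1.35 ± 0.0593) and Anpep (0.68 ± 0.284; mean ± SD in CPM per kilobase, n = 4 each). Vtn lay above Rgs5 in every library of the group, and Rgs5 above Acta2. The ranges of Acta2, Pdgfrb and Tagln overlapped, and so did those of Myh11, Kcnj8 and Abcc9, so neighbours within these sets do not differ beyond their spread. In WT LPS libraries Vtn (24.6 ± 7.42) and Rgs5 (14 ± 2.22) kept this order without overlap, and Pdgfrb (4.95 ± 0.457) stood beside Acta2 (3.98 ± 1.62).

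Within a library, the difference between 2 genes does not depend on library size. Rgs5 minus Pdgfrb was 2.0, 1.9, 2.21 and 1.85 (log2 CPM) in KO LPS replicates 1 to 4 and 1.91, 1.73, 1.64 and 1.64 in KO PBS replicates 1 to 4. It was 1.55, 0.99, 1.1 and 1.21 in WT LPS replicates 1 to 4, against 1.83, 2.22, 2.22 and 1.63 in WT PBS replicates 1 to 4. Every WT LPS library was thus below every other library, so that Rgs5 was low there relative to Pdgfrb as well as to the whole library. The part of cell number and of RNA per cell in this difference was not tested. Against the mean of the 20 endothelial genes, Rgs5 was 1.63 ± 0.291 in WT LPS libraries and 2.25 ± 0.19 in WT PBS libraries, while Pdgfrb was 0.42 ± 0.061 and 0.27 ± 0.217. Abcc9 minus Kcnj8 was 1.39 ± 0.338 in WT LPS libraries and 1.69 ± 0.173 in WT PBS libraries, with ranges that overlapped. The mean of the contractile genes minus Pdgfrb was -1.98 ± 0.569 in WT LPS libraries and -1.33 ± 0.407 in WT PBS libraries, also overlapping.

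**Figure D3:**
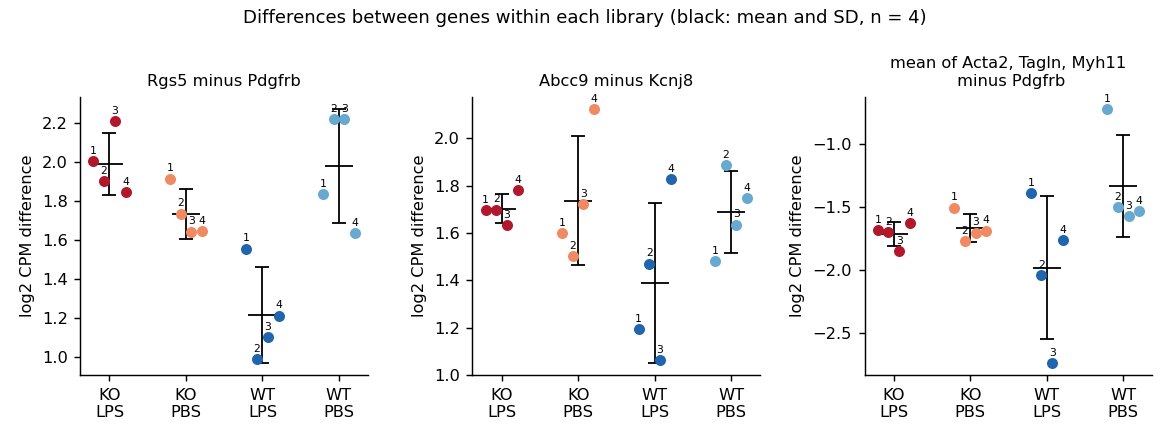
Difference in log2 CPM between genes of the same library (y axis) for Rgs5 and Pdgfrb, Abcc9 and Kcnj8, and the mean of the contractile genes and Pdgfrb, by group (x axis), with replicate numbers and the mean and SD of 4 libraries. In the first panel the WT LPS libraries (0.99 to 1.55) lie below all others, and in the last WT PBS replicate 1 (-0.72) and WT LPS replicate 3 (-2.73) lie at the ends.

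Over the 16 libraries the contractile genes varied together. Pearson's r of log2 CPM was 0.91 for Tagln with Myh11, 0.90 for Acta2 with Myh11 and 0.85 for Acta2 with Tagln, and Vtn followed them (0.87 with Myh11 and 0.86 with Tagln). After removal of the group means these values were 0.90, 0.89, 0.84, 0.84 and 0.86. For Pdgfrb with Rgs5, r was -0.19, and 0.17 after removal of the group means. These correlations are descriptions over 16 libraries that share groups and tissue composition. The genes most like Myh11 over the 16 libraries, among 13283 with a mean log2 CPM of at least 1, were Ltbp4, Lamc3, Flt1, Kdr and Mapk8ip2 (r = 0.87 to 0.84), those most like Tagln were Ikzf4, Lamc3, Ltbp4, Tmem109 and Adgra2 (0.85 to 0.77) and those most like Acta2 were Kdr, St7, Steap3, Rai1 and Spred3 (0.89 to 0.81). For Vtn they were Dzip1, Srcin1, Exd2, Myl9 and Slc35e3 (0.89 to 0.87) and for Pdgfrb Hid1, Tnxb, Rasgrf1, Zfp512b and Zer1 (0.90 to 0.86). For Rgs5, looked up after its values were seen, they were Fermt2, Edn3, Mturn, Mmp15 and Abca8a (0.97 to 0.94).

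**Figure D4:**
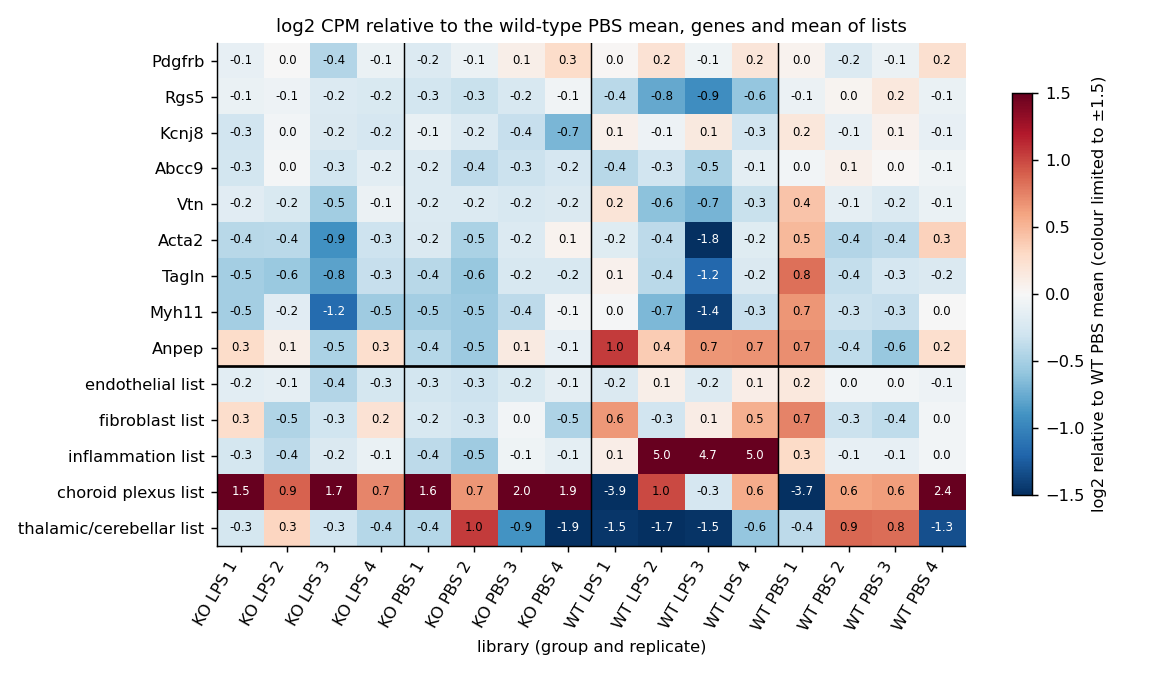
Log2 CPM of the 9 genes, and the mean of 5 gene lists, in each of the 16 libraries (columns, grouped as KO LPS, KO PBS, WT LPS and WT PBS) relative to the WT PBS mean, with colour limited to the range of the bar. The contractile rows and Vtn share their high library (WT PBS replicate 1) and low library (WT LPS replicate 3), the inflammation row is high only in WT LPS replicates 2 to 4, and the choroid plexus row is lowest in replicate 1 of both WT groups (-3.94 and -3.65).

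Other genes were read from lists drawn up for pericytes and for smooth muscle. The smooth muscle list also holds genes of other muscle, such as Tnnt1 of slow skeletal muscle. Over all genes tested, 4.72% rose and 3.85% fell after LPS in WT. Under LPS, 4.61% were higher and 7.28% lower in KO than in WT. These shares stand beside every list count below. Of 25 further pericyte genes, 2 fell after LPS in WT, 0 rose and 23 did not pass, with a median log2 fold change of -0.08. Those that fell were Mcam, the adhesion molecule CD146 (16.4 CPM in LPS and 29.0 CPM in PBS libraries; -0.82 ± 0.20, adjusted p = 0.0204), and Enpep, aminopeptidase A, which cuts angiotensin (2.37 and 3.9 CPM; -0.73 ± 0.20, adjusted p = 0.0325). Mcam was 18.2, 19.5, 12 and 16 CPM in WT LPS replicates 1 to 4, against 20.5, 27.0, 28.4 and 40.1 CPM in WT PBS replicates 1 to 4, with no overlap. The classical markers Cspg4 (-0.18 ± 0.09), Notch3 (-0.05 ± 0.15) and Higd1b (-0.19 ± 0.19) did not pass. Under LPS, 0 of the 25 were higher in KO than in WT and 3 lower, among them the transcription factor gene Foxs1 (-1.13 ± 0.29, at 0.254 CPM in KO and 0.566 CPM in WT) and the amino acid transporter gene Slc6a20a (-0.77 ± 0.22).

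Of 28 tested genes of the further smooth muscle list, 5 fell and 1 rose after LPS in WT, with a median of -0.27. The 5 were Smyd1, a muscle methyltransferase gene (-1.71 ± 0.27), Nexn, an actin-binding protein of muscle (-2.24 ± 0.54), Tnnt1, slow skeletal troponin T (-3.50 ± 0.78), Synpo2, an actin-bundling protein (-2.41 ± 0.61), and Mrvi1, a target of cGMP kinase in smooth muscle (-1.81 ± 0.44). Tinagl1, a matrix protein of vessels, rose (1.07 ± 0.30), though its 5.83 to 19.5 CPM in WT LPS libraries overlapped the 4.52 to 7.72 CPM of WT PBS libraries. Among the 22 that did not pass were Myl9, the regulatory myosin light chain (-0.71 ± 0.25, adjusted p = 0.0968), Cnn1, calponin (-0.31 ± 0.46), Lmod1 (-0.19 ± 0.30) and Des, desmin (0.02 ± 0.26).

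Beside these falls stand values from outside the vessel wall. Of 13 tested marker genes of thalamus and cerebellum, 3 fell in the same comparison (Lef1, Ramp3 and Prkcd) and the median of the list was -1.56. Prkcd, a thalamic marker, held 294 and 299 CPM in WT PBS replicates 2 and 3 and 35 and 36.8 CPM in WT PBS replicates 1 and 4. Tnnt1 was likewise at 31.3 and 34.0 CPM in WT PBS replicates 2 and 3, and at 9.08 and 2.16 CPM in replicates 1 and 4, and Synpo2 at 80.4 and 81.1 CPM against 14.1 and 13.6 CPM. The summed level of the thalamic and cerebellar list was 138 to 305 CPM in WT LPS libraries, against 957 and 971 CPM in WT PBS replicates 2 and 3 and 305 and 178 CPM in WT PBS replicates 1 and 4. In those same pairs of WT PBS libraries, Rgs5 was 102.9 and 111.6 CPM against 94.0 and 93.5 CPM, and Acta2 9.17 and 9.46 CPM against 17.4 and 15.9 CPM. The part of thalamic tissue in the smooth muscle list and in the WT PBS level of Rgs5 was not tested.

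Under LPS, 6 of the 28 were higher in KO than in WT and 3 lower, among them Smyd1 (1.49 ± 0.27), Nexn (2.72 ± 0.54), Tnnt1 (3.23 ± 0.78) and, lower, Mustn1 (-1.02 ± 0.24). The thalamic and cerebellar list moved with them, its summed level being 344 to 654 CPM in KO LPS libraries and 138 to 305 CPM in WT LPS libraries, with no overlap. Of its 13 genes 1 was higher in KO, 11 had positive estimates and the median was 1.07. Its part in these differences was not tested.

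**Figure D5:**
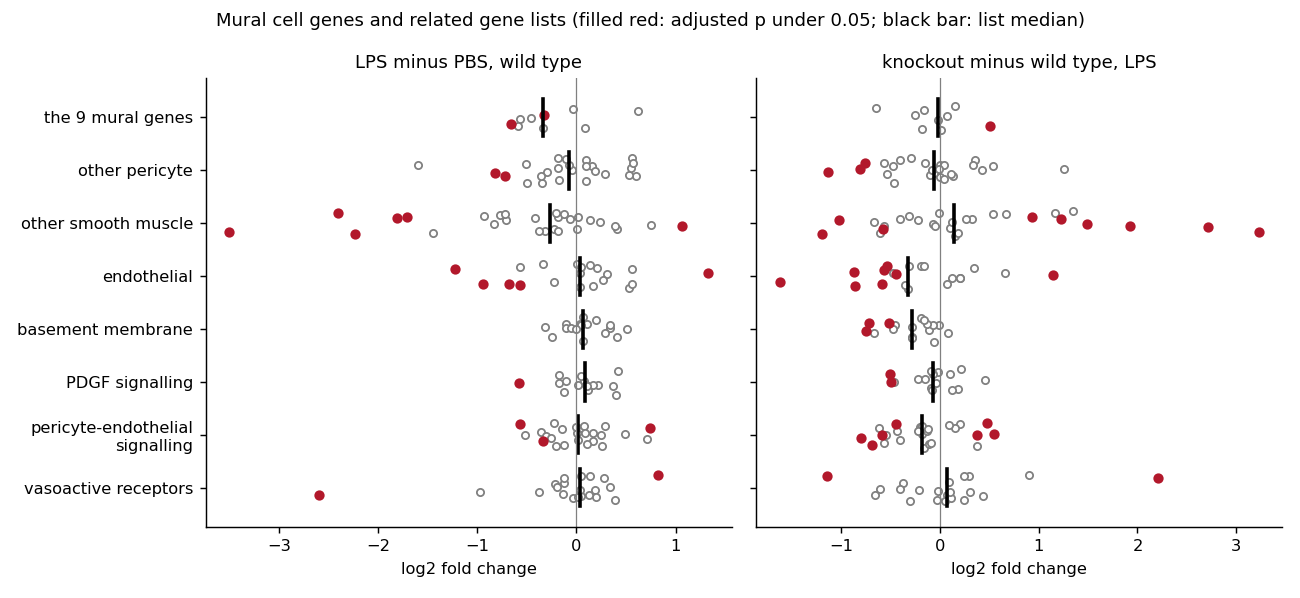
Log2 fold change (x axis) of each gene of 8 lists (y axis) for LPS against PBS in WT and for KO against WT under LPS, filled red where the adjusted p was under 0.05, with the list median as a black bar. The further smooth muscle list, which also holds genes of other muscle, spreads widest, down to -3.50 in the first panel. The 9 mural genes lie between -0.66 and 0.63 in that panel.

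Of 16 genes of PDGF signalling, 1 fell after LPS in WT and 0 rose. The ligand gene Pdgfb, which endothelial cells express to hold pericytes, stood at 22.2 CPM in LPS and 25.1 CPM in PBS libraries and did not pass (-0.18 ± 0.11), nor did Pdgfa, Pdgfc, Pdgfd or the sister receptor gene Pdgfra (0.21 ± 0.11). Under LPS the adaptor gene Shc1 (-0.51 ± 0.15) and Plat, tissue plasminogen activator (-0.50 ± 0.15), were lower in KO, and 0 of 16 were higher. Of 10 measured genes of the serum response factor and myocardin programme, 1 rose in WT, the cofactor gene Elk1 (0.21 ± 0.06), which was also the 1 that was lower in KO under LPS (-0.21 ± 0.06). Srf itself (-0.08 ± 0.07) and the smooth muscle coactivator gene Myocd (-0.06 ± 0.62, 0.258 CPM in LPS and 0.266 CPM in PBS libraries) did not pass.

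Of 25 genes through which pericytes and endothelium signal to each other, 1 rose and 2 fell in WT. Tgfb1 rose (0.75 ± 0.17), while its receptor gene Tgfbr1 (-0.34 ± 0.09) and Tek, the angiopoietin receptor (-0.57 ± 0.16), fell. Under LPS, 3 of these 25 were higher and 4 lower in KO, with Tgfbr1 higher (0.47 ± 0.09) and Tgfb1 (-0.70 ± 0.17) and the receptor gene Acvrl1 (-0.80 ± 0.23) lower. Of 20 endothelial genes, 1 rose in WT, Ly6c1 (1.33 ± 0.27), and 4 fell, among them Itm2a (-1.23 ± 0.28). In WT LPS replicate 1, which lacked the Lcn2 response, Ly6c1 was 23.6 CPM, against 79.1 to 83.2 CPM in WT LPS replicates 2 to 4 and 20.9 to 28.8 CPM in WT PBS libraries. Itm2a was 32.6 CPM there, against 10.6 to 11.7 CPM in WT LPS replicates 2 to 4 and 33.2 to 42.9 CPM in WT PBS libraries. Tgfb1 was likewise 5.86 CPM there and 7.81 to 9.76 CPM in the other WT LPS libraries. Under LPS 1 was higher in KO, Itm2a (1.15 ± 0.28), and 7 were lower, among them Ly6c1 (-1.62 ± 0.28), Pecam1 (-0.88 ± 0.18) and the lipid transporter gene Mfsd2a (-0.87 ± 0.20).

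Of 17 basement membrane genes, 0 passed in WT and 3 were lower in KO under LPS, the collagen genes Col4a1 (-0.72 ± 0.18) and Col4a2 (-0.52 ± 0.15) and the perlecan gene Hspg2 (-0.76 ± 0.19). Of 10 genes for receptors and partners of vitronectin, 1 rose in WT, Plaur, the urokinase receptor (2.72 ± 0.49), and it was lower in KO under LPS (-2.70 ± 0.49). Plaur was 0.672, 4.44, 5.29 and 4.97 CPM in WT LPS replicates 1 to 4, against 0.464 to 0.724 CPM in WT PBS libraries, so that replicate 1 lay within the PBS range. The integrin genes Itgav (-0.04 ± 0.13), Itgb3 (0.07 ± 0.13) and Itgb5 (-0.02 ± 0.08) did not pass in WT. Of 21 tested genes for vasoactive receptors and enzymes, the nitric oxide synthase gene Nos3 rose in WT (0.83 ± 0.23) and the adrenergic receptor gene Adra2b fell (-2.60 ± 0.64). Under LPS Nos3 was lower in KO (-1.15 ± 0.23) and Adra2b higher (2.21 ± 0.63). Nos3 was 16.1 to 22.7 CPM in WT LPS replicates 2 to 4, but 8.7 CPM in replicate 1, within the 8.13 to 11.9 CPM of WT PBS libraries. Adra2b was 3.65 and 3.79 CPM in WT PBS replicates 2 and 3, where the thalamic marker Prkcd was high, and 0.841 and 0.905 CPM in replicates 1 and 4. The part of thalamic tissue in its values was not tested. In KO, LPS against PBS called 0 genes of any of these lists.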

How the data were processed

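Hippocampal RNA was sequenced in 16 libraries. The deposited table holds an estimated count per gene and library, already rounded to whole numbers; per the submitters' processing notes Salmon 1.9.0, MultiQC 1.13, DESeq2 and DESeq were used, with no role given, and the genome build and strand setting are not given in the sources used here. Every gene listed sums to at least 10 counts. Symbols, positions and exon lengths came from GENCODE M21 (GRCm38); 105 identifiers with 0.0537% of the counts were not in it. The 9 genes and all lists were chosen with earlier results of these data known.

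The filterByExpr function of edgeR 4.0.16 in R 4.3.3 kept 16269 genes and 99.97% of the counts. Libraries were scaled by TMM, and group means were fitted over all 16 libraries with the quasi-likelihood model (biological coefficient of variation 0.177). P-values were adjusted by Benjamini-Hochberg over all genes tested, at 0.05. CPM was computed on library sizes after TMM; a prior count of 2 was added for log2 CPM. The SE is the log2 fold change divided by the root of F. Library totals of 30198619 to 50009041 put at least 53 counts behind every value of the 9 genes, and reads without molecular identifiers are not independent molecules. The fit was tested on simulated counts.

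Named genes were the 9, up to 4 passing genes per further list with the smallest p over LPS against PBS in WT and KO against WT under LPS, Lcn2, Tspo, and the 5 genes most correlated with each of Pdgfrb, Vtn, Acta2, Tagln and Myh11. Genes named beyond that rule (non-passing or further passing genes of a list, marker genes and the 5 for Rgs5) were chosen after their values were seen. Some genes that passed are not reported here. Replicate numbers did not pair the libraries. Alternatives were RLE scaling, no filter, DESeq2 1.42.0, limma 3.58.1 voom with quality weights, a replicate block, a fit of only the libraries compared, summing WT PBS replicates 2 and 3, the title code as a term and leaving out libraries. WT PBS replicates 2 and 3 were the most alike pair within a group. Their chi-square of counts per degree of freedom was 3.68, against 11.75 for the next pair (KO PBS replicates 1 and 3). They differed beyond sampling noise and were kept as separate libraries. Such a difference does not show that they came from different animals, which was not tested. Shared sequence was counted in 31-base words of GENCODE M21 transcripts.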

Additional observations from a re-analysis of the deposited data

Results flagged for a closer look

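Vtn in WT PBS replicate 1 stood at 83.8 CPM, far from the 54.0 to 58.3 CPM of the other 3 WT PBS libraries, a gap of 0.855 of the range of the group. Tagln in the same library stood at 12.2 CPM, against 5.31 to 5.86 CPM in the others, a gap of 0.92 of the range. Of 36 groups of 4 libraries examined (9 genes in 4 groups) these 2 passed Dixon's 95% limit, and chance flags about 1 group in 20. That library also had the lowest choroid plexus score of its group (-3.65) and the highest fibroblast score (0.74), and their part in these values was not tested.

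The interaction of genotype with LPS for Rgs5 was 0.731 on the log2 scale for KO minus WT (SE 0.139, adjusted p = 0.0432, edgeR). The call held in 3 of 16 fits that left out a library, and was lost with the replicate number as a block (adjusted p = 0.0785, edgeR) and with WT PBS replicates 2 and 3 summed (0.113). In KO the LPS and PBS libraries overlapped, and in WT all 4 LPS libraries lay below all 4 PBS libraries. Lcn2 was at most 0.119 CPM in KO LPS libraries, and whether LPS acted in them was not tested.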

How the results depend on the processing

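The fall of Rgs5 in WT kept its direction under every alternative run and its call in all 16 fits that left out a library (-0.76 to -0.58), and its higher level in KO under LPS kept its call in every alternative that could be run (0.42 to 0.60 with a library left out). KO LPS libraries share no title code with any other group, so the code could not be a term in comparisons that use them. For KO against WT under PBS a fit with the code was not run. The counts among the 9 genes and among all genes moved as follows.

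For LPS against PBS in WT (2 of the 9 and 1394 genes), leaving out libraries gave 1 to 3 and 538 to 3380. The fit of the 8 WT libraries and the title code as a term, which leaves 1 library of each treatment, gave 0 and 0, summing WT PBS replicates 2 and 3 gave 1 and 670, DESeq2 2096 genes, limma 4 (with Vtn and Anpep) and 4684, and leaving out replicate 1 of both WT groups 3099 genes. In KO (0 and 0), leaving out libraries gave 0 and 0 to 1, and DESeq2 3 genes. For KO against WT under PBS (0 and 6), leaving out libraries gave 0 and 1 to 9, the summed replicates 1 gene, DESeq2 17, and limma 1 (Abcc9) and 308. Under LPS (1 and 1935), leaving out libraries gave 1 and 858 to 4005, the fit of the 8 libraries 438 genes, limma 4073, and leaving out replicate 1 of both WT groups 2 (with Vtn) and 4036. For the interaction (1 and 187), leaving out libraries gave 0 to 2 and 0 to 2655, RLE 63 genes, no filter 39, the summed replicates 0 and 0, DESeq2 2 and 1281, limma 2 and 4029 (Abcc9 joining Rgs5 in both), and leaving out replicate 1 of both WT groups 2364 genes.

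Of 24 pairs of same-numbered libraries, 2 had an r of deviations over 0.1 (r from -0.232 to 0.364). The highest r was that of WT PBS replicate 1 with WT LPS replicate 1. Most pairs did not deviate together, so the replicate number was taken as no pairing. With it as a replicate block, 0 of the 9 and 0 genes were called for the interaction (Rgs5 0.74, adjusted p = 0.0785, edgeR) and 3 genes for KO against WT under PBS, while the counts among the 9 stayed at 2, 0, 0 and 1 in the other comparisons.

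Among single genes 28 estimates turned sign, none with a call. In WT the title code gave -0.23 for Pdgfrb, 0.20 for Kcnj8, 0.29 for Vtn and 0.29 for Tagln. For KO against WT under PBS, Pdgfrb was -0.027 with the summed replicates, and limma gave 0.085 for Acta2 and 0.16 for Anpep. Under LPS, Myh11 was 0.023 with the block, 0.34 in limma and 0.19 without replicate 1 of both WT groups, and Tagln 0.06 in limma. Leaving out libraries moved Kcnj8 in WT between -0.088 and 0.046, Vtn in KO between -0.082 and 0.054, Pdgfrb under PBS between -0.076 and 0.10, Vtn, Acta2 and Myh11 under LPS between -0.036 and 0.30, -0.25 and 0.14, and -0.23 and 0.20, and the interaction of Tagln between -0.10 and 0.45. The causes were not tested. The smallest count behind a value of the 9 genes was 53 (Anpep).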
